A study of Mus musculus with 15 samples.

Results

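The transcripts described here are 41 mouse RNAs that carry only a provisional name and whose mean signal passed a set level on microarrays run on alveolar type II epithelial (AT2) cells, which make the lung's surfactant. They were chosen from the 323 gene symbols that the deposited table measures, taking 1 row per symbol. A symbol was kept if it was a predicted gene (Gm or LOC followed by digits) or a RIKEN clone (ending in Rik) and if its mean over all 15 arrays lay above 3.5 on the log2 scale. Of 251 symbols with such names, 210 lay at or below that level, and another 22 measured symbols above it have names of other forms. These 22 include established genes such as Lpin2 and Clu, and also provisional names such as D17H6S56E-5, D5Ertd683e and AA666905. The choice used the mean over all groups, so a transcript near the threshold could pass because 1 group was high. Just inside the threshold lay Gm10021, Gm20066 and Gm19279, with means of 3.503, 3.506 and 3.518. C230013L11Rik, 4930429F24Rik and Gm20555 lay just outside, at 3.460, 3.447 and 3.412.

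The study compared AT2 cells from 3 groups of mice, with 5 arrays in each group and an age of 8 to 12 weeks throughout. In the Tregs-depleted group the lungs were resolving from injury in the absence of Foxp3+ regulatory T cells (Tregs). These were Foxp3DTR mice, which carry the human diphtheria toxin receptor and green fluorescent protein in the Foxp3 locus, so that diphtheria toxin injected into the peritoneum kills cells that use Foxp3. In the Tregs-present group, lungs of Foxp3EGFP mice, which carry a green fluorescent reporter of Foxp3, resolved with their Tregs in place. Control mice were C57BL/6, and both other strains are on that background. Injury was made with 3 mg/kg of lipopolysaccharide from Escherichia coli, put into the trachea, and the protocols place the harvest on day 7. The protocol text can be read as giving lipopolysaccharide to all 3 strains, although 1 group is called control. It does not settle whether Tregs-present mice received the toxin. Strain differs between all 3 groups, so that strain, toxin and Treg loss cannot be told apart. In the comparisons with control, injury cannot be told apart from strain either. Nothing in the labels says that each array is a separate mouse, and the p-values then measure only the spread between these arrays.

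RIKEN clone names come from the FANTOM project, which sequenced full-length mouse cDNAs on a large scale and catalogued many RNAs that code for no known protein. Gm and LOC symbols are placeholders for genes predicted from cDNA or genome sequence, and many such loci were later found to be long non-coding RNAs, pseudogenes or extensions of neighbouring genes. Most have no known function, so what can be said of them here rests on their level, their place and their change.

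Values are robust multi-array average (RMA) signals on the log2 scale, so that a difference of 1 is a 2-fold difference in signal. Levels of different transcripts are read by different probes and are not ranked against each other as amounts of RNA. In the measured rows the median of each array lay between 2.25 and 2.39, and arrays of the same group correlated at 0.951 to 0.984 over all measured symbols. Arrays of different groups correlated at 0.929 to 0.984. Of the marker genes listed for the sorted cells, 0 of 8 for AT2 cells were measured, and the pairing of names with values could not be checked on them. From 12 lists of cell types only Clu and Lcp2 were measured. Lcp2, a signalling adaptor of leukocytes, stood at 2.75, 3.37, 3.64, 3.504 and 7.07 with Tregs depleted, at 2.85, 3.80, 3.58, 4.33 and 3.58 with Tregs present, and at 3.60, 2.78, 3.41, 6.61 and 3.81 in control. Depleted array 5 and control array 4 thus stood apart from their groups in this 1 leukocyte gene, although cells with the leukocyte marker CD45 had been depleted before the sort. In bulk RNA, fewer cells of a type and less RNA per cell cannot be told apart.

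Of the 41 transcripts, 26 are Gm symbols, 14 are RIKEN clones and 1 is LOC100505155, and the transcript name of all 41 begins with AK, the prefix of cDNA sequences. Mean levels ran from 3.503 for Gm10021 to 9.38 for C530030P08Rik. All 41 lay above the array's median in all 15 arrays, by as little as 0.02 for A730028G07Rik. The RefSeq tables for the assembly GRCm38.p6 matched 11 of them, 5 by gene number, 2 by symbol and 4 by an older name. Long non-coding RNAs made up 6 of these 11, namely A230045G11Rik, Gm19439, Gm20559, Gm10589, Gm17739 (now Gm46901) and Gm11974 (now Snhg15, a host gene of small nucleolar RNAs). Both Gm5859 and Gm10590 (now Gm2192) are listed as transcribed pseudogenes, and Gm10914 as another kind of RNA. Older names placed Gm7265 with Nedd4, which encodes a ubiquitin ligase, and A730028G07Rik with Cklf, which encodes a chemokine-like factor. The other 30 had no match.

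Position could be read in part from the array's own numbering, which follows the chromosomes for most of the table. By these numbers 17 of the 41 have a place between named neighbours. The other 24 have numbers in a late block where chromosomes are mixed, and no place is given for them. This late block supplied 37% of the measured rows, against 1.49% of all rows of the table. A total of 6 members, among them Gm5859, Gm10590, 4930466F19Rik and Gm10914, have more than 1 probe-set number, so that their signal may come from more than 1 locus.

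Gm20559, a long non-coding RNA whose number lies beside Samd9l on chromosome 6, was the only one of the 41 called higher in either comparison with control in the values as deposited. The RefSeq promoter table lists 3 neighbouring starts for it, and the following stretches, 5′ to 3′ on the minus strand of GRCm38.p6, are shown because they are the start of that transcript. Capitals mark TATAAA in the first and CCAAT in the second, each read on the opposite strand.
Gm20559 at its start, chr6:3346125-3346154: aggaagtctcttTTTATAtcagaatcgaaa
Gm20559 upstream, chr6:3346276-3346305: gggatttgattgATTGGgatgtatagtgag
Over the window of 250 bases before to 50 bases after a start, TATAAA occurred on either strand in 13.6% of all 32851 promoters in that table, and CCAAT in 37.4%. The first of these runs overlaps the listed starts themselves. The GC box GGGCGG, the AP-1 site TGANTCA, the STAT site TTCNNNGAA, the C/EBP site TTGCNNAA and a short form of the interferon-stimulated response element were searched in the same way, and these letters were not in this window.

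Gm20559 had levels of 6.74, 7.28, 7.50, 6.99 and 7.25 with Tregs depleted, 6.90, 7.04, 6.71, 7.01 and 6.68 with Tregs present, and 6.12, 6.15, 5.73, 6.43 and 5.46 in control. Every array of both resolving groups lay above every control array. With Tregs depleted the mean was 7.15 ± 0.29, against 5.98 ± 0.38 in control (SD, n = 5 each), a 2.25-fold higher signal with a difference of 1.17 (95% interval 0.79 to 1.55, adjusted p = 0.000184). With Tregs present the mean was 6.87 ± 0.17, and the difference from control was 0.89 (95% interval 0.51 to 1.27, adjusted p = 0.00139). The call held in all 29 alternative settings for each comparison. Between Tregs depleted and Tregs present the difference was 0.28 (adjusted p = 0.697), and these groups overlapped.

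As a group, most of the 41 transcripts gave lower signals in resolving lungs than in control. With Tregs depleted 11 of the 41 passed an adjusted p of 0.05 in the limma fit over all 173 tested symbols, 1 higher (Gm20559) and 10 lower. Among all tested symbols 11.0% were called in that comparison, 2.89% higher and 8.09% lower. With Tregs present 19 of the 41 passed, 1 higher (again Gm20559) and 18 lower, where 16.2% of all tested symbols were called, 2.89% higher and 13.3% lower. Few low symbols were called at all, so the 22 symbols with other names above the same level are the nearer background. Of those 22, 5 (22.7%) were called in each comparison with control, against 26.8% of the 41 with Tregs depleted and 46.3% with Tregs present. The share with Tregs depleted is thus near that of the 22 other symbols above that level. The lower calls include Gm20066, which entered the 41 only through its high control arrays. The 31 members with a mean above 4 leave out Gm20066 and every other member at or below that level. Of these 31, 10 were called with Tregs depleted and 18 with Tregs present.

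Directions were uneven beyond the calls. With Tregs depleted 9 of the 41 differences lay above 0 and 32 below, with a median of -0.29, where the median over all tested symbols was -0.04. With Tregs present 6 lay above and 35 below, with a median of -0.48, where all tested symbols had -0.07. Of the 22 other symbols above the same level, 9 lay above 0 and 13 below with Tregs depleted (median -0.07). With Tregs present 6 of those 22 lay above and 16 below (median -0.17). When the measured rows were quantile normalized, which forces every array to the same distribution, much of the lean of the 41 went. The 41 make up most of the 63 tested symbols above 3.5. Scaling to equal distributions can therefore remove part of any shift that the 41 share, and can raise rows that did not change. The source of the lean in the deposited values was not tested. The split of the 41 became 21 above and 19 below with Tregs depleted (median 0.03), and 19 above and 22 below with Tregs present (median -0.20). Calls under that scaling numbered 11 (2 higher, 9 lower) and 13 (4 higher, 9 lower). Among all 173 tested symbols it gave 19 calls with Tregs depleted and 27 with Tregs present. Gm20559 and Gm19313 were the higher calls with Tregs depleted. With Tregs present these were joined by D030029J20Rik (0.46, against -0.05 as deposited) and Gm10589 (0.50, against 0.14 as deposited), which are named because the count is small and after their values were seen. Without Tregs-present array 1, 12 rather than 19 were called with Tregs present, where 19 of all 170 symbols tested in that fit were called. With depleted array 5 and control array 4 both left out the counts were 12 with Tregs depleted and 19 with Tregs present. In those fits 21 and 33 of all 167 tested symbols were called.

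**Figure D1:**
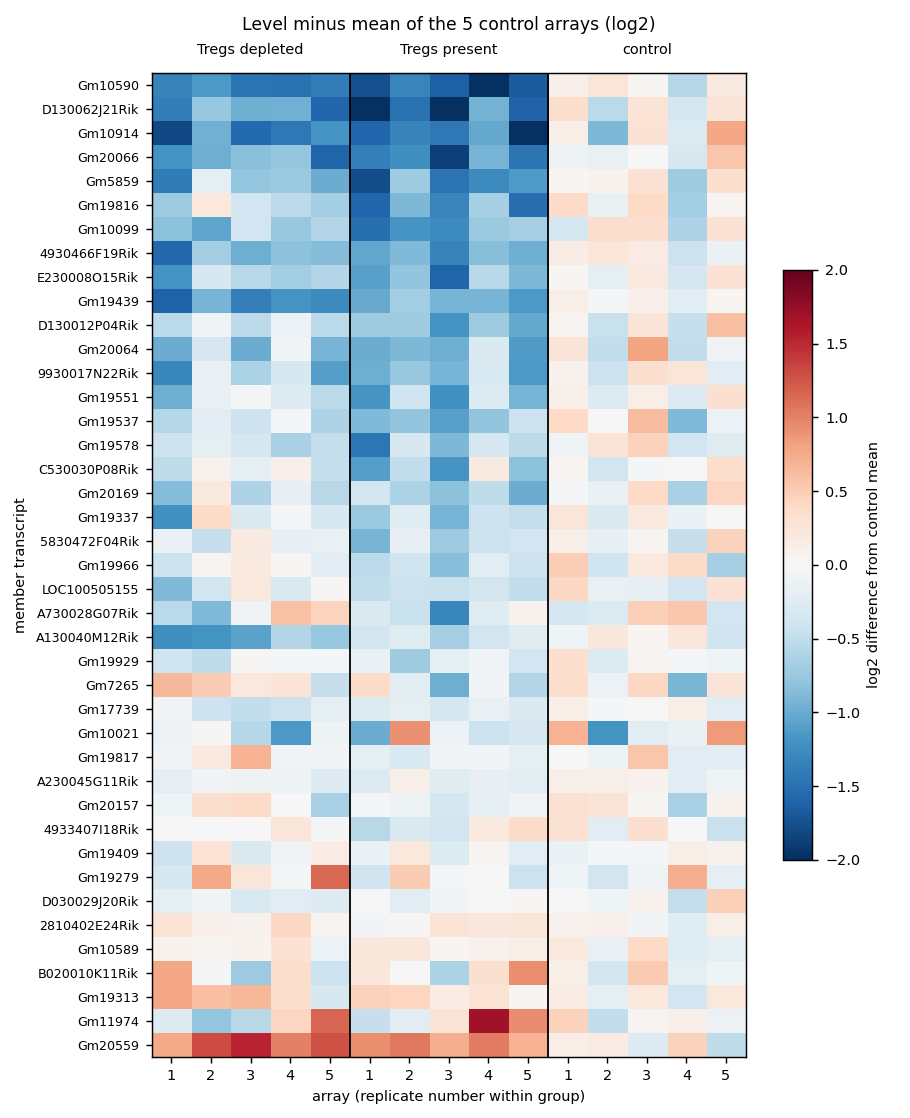
Log2 level of each of the 41 transcripts in each of the 15 arrays, as the difference from that transcript's mean in control, with Tregs-depleted arrays on the left, Tregs-present arrays in the middle and control arrays on the right. Colours are clipped at a difference of 2, and most rows are lower in both resolving groups, with Gm20559 the one called row that is higher. Under quantile normalization the split of higher and lower rows becomes 21 to 19 with Tregs depleted and 19 to 22 with Tregs present. That scaling can itself remove part of any shift that the 41 share.

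The mean of the 41 transcripts in each array shows how the lean was spread over arrays. It was 4.70, 5.05, 4.93, 4.99 and 4.85 with Tregs depleted, 4.58, 4.85, 4.50, 4.94 and 4.71 with Tregs present, and 5.38, 5.07, 5.44, 5.01 and 5.31 in control. All Tregs-present arrays lay below all control arrays, whereas depleted array 2 lay above control array 4. The 22 other symbols above the same level averaged 5.23 ± 0.07 with Tregs depleted, 5.14 ± 0.11 with Tregs present and 5.24 ± 0.07 in control (SD, n = 5 each). Their group ranges overlapped in every pairing. Control array 4, which was high in Lcp2, had the lowest mean of the 41 transcripts among control arrays. Whether its cell content bears on that was not tested.

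**Figure D2:**
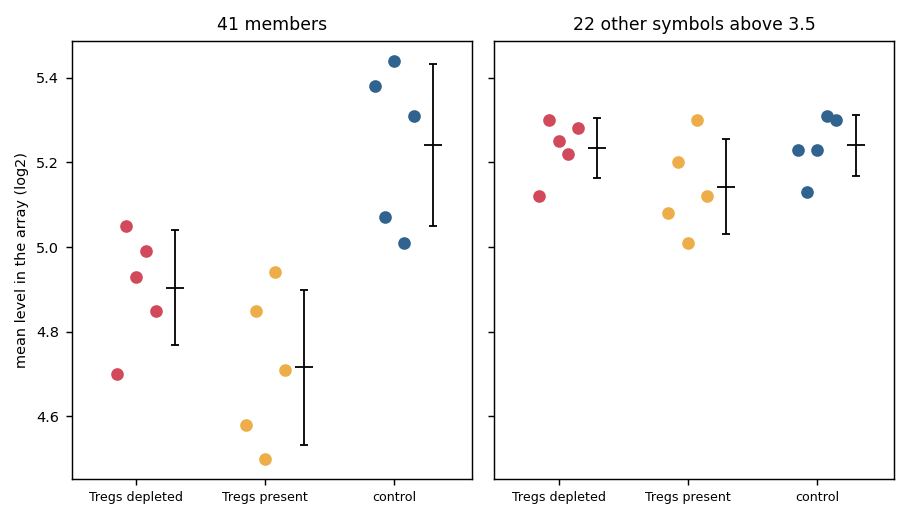
Mean log2 level of the 41 transcripts and of the 22 other symbols above the same level, one point per array, with the mean and SD of each group of 5. For the 41 transcripts the Tregs-depleted arrays lie between 4.70 and 5.05, the Tregs-present arrays between 4.50 and 4.94 and the control arrays between 5.01 and 5.44, while the other symbols overlap in all 3 groups.

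Among the called transcripts, Gm10590, Gm5859 and 4930466F19Rik have array numbers next to rows of Ccl27a on chromosome 4, which encodes an epithelial chemokine. Gm10590, listed as a transcribed pseudogene, had levels of 5.33, 5.51, 5.20, 5.17 and 5.28 with Tregs depleted, 4.91, 5.35, 5.03, 4.61 and 5.01 with Tregs present, and 6.77, 6.91, 6.69, 6.10 and 6.85 in control. Both resolving groups lay wholly below control. It fell with Tregs depleted, to a mean of 5.30 ± 0.13 against 6.67 ± 0.33 in control, a change of -1.37 (95% interval -1.72 to -1.01, adjusted p = 1.11e-05). It also fell with Tregs present, to 4.98 ± 0.27, a change of -1.68 (95% interval -2.04 to -1.33, adjusted p = 1.13e-06) and a 3.21-fold lower signal, which was the largest fall among the 41. In control array 4 it stood lowest of the control arrays.

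Gm5859, the pseudogene whose number adjoins that of Gm10590, stood at 4.97, 6.19, 5.61, 5.63 and 5.38 with Tregs depleted, 4.60, 5.67, 4.89, 5.10 and 5.24 with Tregs present, and 6.41, 6.44, 6.67, 5.66 and 6.69 in control. Control array 4 lay among the resolving arrays and the other 4 control arrays lay above all of them. The change with Tregs depleted was -0.82 (95% interval -1.33 to -0.31, adjusted p = 0.0336), and that call was lost in 10 of 29 alternatives. These included the fits without depleted array 1, 3, 4 or 5 and without control array 1, 2, 3 or 5, and the change ran from -0.998 to -0.67 over all arrays left out in turn. With Tregs present it was -1.27 (95% interval -1.79 to -0.76, adjusted p = 0.000913), a call kept in every alternative run.

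4930466F19Rik, a RIKEN clone whose number falls between rows of Gm2023 and Ccl27a on chromosome 4 without settling its place there, stood at 3.40, 4.26, 3.99, 4.14 and 4.10 with Tregs depleted, 3.92, 4.08, 3.63, 4.11 and 3.98 with Tregs present, and 5.12, 5.20, 5.13, 4.53 and 4.83 in control. Each resolving array was below each control array. It fell in both groups, with a change of -0.99 (95% interval -1.36 to -0.61, adjusted p = 0.000716) with Tregs depleted and of -1.02 (95% interval -1.39 to -0.64, adjusted p = 0.000364) with Tregs present. Under quantile normalization these changes shrank to -0.62 (adjusted p = 0.0143) with Tregs depleted and -0.48 (adjusted p = 0.0486) with Tregs present, and both were still called. Gm10590, Gm5859 and 4930466F19Rik have several probe-set numbers that the file cuts short, so the loci behind these signals cannot be counted.

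A second place on chromosome 4 held 2 of the called transcripts. D130062J21Rik and Gm20066 are both numbered between Bach2, which encodes a transcription factor of lymphocytes, and Casp8ap2, which encodes a caspase-8-associated protein. D130062J21Rik had levels of 4.09, 4.72, 4.50, 4.52 and 3.90 with Tregs depleted, 3.46, 3.98, 3.18, 4.53 and 3.85 with Tregs present, and 5.83, 4.93, 5.75, 5.13 and 5.74 in control. Neither resolving group reached the lowest control array. Its change was -1.13 (95% interval -1.65 to -0.61, adjusted p = 0.00341) with Tregs depleted and -1.67 (95% interval -2.19 to -1.15, adjusted p = 8.49e-05) with Tregs present.

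Gm20066, only just above the level threshold, stood at 3.13, 3.34, 3.48, 3.54 and 2.72 with Tregs depleted, 2.95, 3.09, 2.46, 3.39 and 2.85 with Tregs present, and 4.22, 4.18, 4.33, 4.01 and 4.88 in control. Again the resolving arrays all lay below the control arrays. Its group means were 3.24 ± 0.33 with Tregs depleted, 2.95 ± 0.34 with Tregs present and 4.32 ± 0.33 in control, so that it passed the level threshold only through the control group. Its differences from control, -1.08 with Tregs depleted and -1.37 with Tregs present, are tied to that choice and are given as a description. Neither Bach2 nor Casp8ap2 is among the measured rows, so whether these neighbours moved as well is not analysed here.

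Gm19439, a long non-coding RNA numbered between Nes and Gpatch4 on chromosome 3, was called lower in both comparisons and stood among the 8 highest of the 41. Its levels were 6.06, 6.75, 6.31, 6.49 and 6.40 with Tregs depleted, 6.68, 6.98, 6.75, 6.75 and 6.53 with Tregs present, and 7.79, 7.64, 7.79, 7.45 and 7.72 in control. All control arrays lay above all others. With Tregs depleted the mean was 6.40 ± 0.25, against 7.68 ± 0.14 in control, and the change was -1.27 (95% interval -1.56 to -0.98, adjusted p = 3.27e-06). The change with Tregs present was -0.94 (95% interval -1.23 to -0.65, adjusted p = 8.46e-05), and the difference between the resolving groups did not pass the test at -0.33 (adjusted p = 0.527).

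A130040M12Rik, numbered between Dhx40 and Ypel2 on chromosome 11, was called only with Tregs depleted in the fit over all tested symbols. It had levels of 6.46, 6.50, 6.63, 7.10 and 6.94 with Tregs depleted, 7.32, 7.45, 7.03, 7.33 and 7.44 with Tregs present, and 7.61, 7.92, 7.73, 7.92 and 7.29 in control. Depleted arrays lay wholly below control arrays, while Tregs-present arrays overlapped both groups. It fell with Tregs depleted, with a change of -0.97 (95% interval -1.30 to -0.64, adjusted p = 0.000249), whereas the value with Tregs present was -0.38 (95% interval -0.71 to -0.05, adjusted p = 0.115). With Tregs present it was also called lower in 3 of 29 alternatives. These tested only symbols with a mean over 3.5, tested only those with a mean over 4, or left out control array 5. The resolving groups differed by -0.59 (95% interval -0.92 to -0.26, adjusted p = 0.252), which did not pass over all tested symbols. It passed (adjusted p = 0.0384) only when the test was limited to symbols with a mean over 4.

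C530030P08Rik, numbered beside Fbxw11 on chromosome 11, gave the highest signal of the 41. Its levels were 9.15, 9.75, 9.49, 9.77 and 9.21 with Tregs depleted, 8.56, 9.17, 8.49, 9.85 and 8.85 with Tregs present, and 9.72, 9.30, 9.64, 9.67 and 10.02 in control. Tregs-present arrays overlapped control arrays, since array 4 of that group reached 9.85. The change with Tregs present was -0.69 (95% interval -1.14 to -0.23, adjusted p = 0.0344), a call that was lost in 12 of 29 alternatives and shrank to -0.21 under quantile normalization. Among them were the fits without Tregs-present array 1, 3 or 5 and without control array 1, 3, 4 or 5, and the change ran from -0.90 to -0.56 over all arrays left out in turn. The value with Tregs depleted was -0.19 (adjusted p = 0.614).

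**Figure D3:**
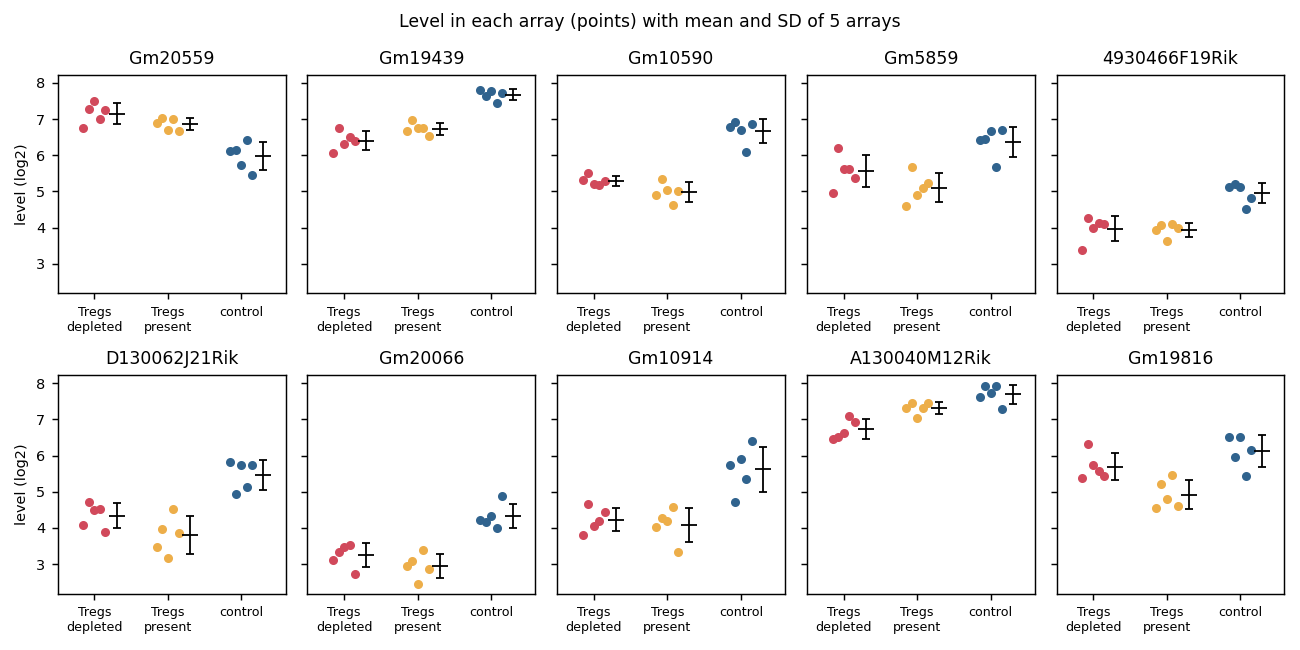
Log2 level per array for selected called transcripts, with Tregs depleted, Tregs present and control from left to right and with the mean and SD of each group of 5 beside the points. Gm20559 is higher in both resolving groups, and Gm10590 shows both resolving groups below every control array.

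Another 11 called transcripts have numbers in the late block and were all lower. Gm10914, listed as a non-coding RNA gene of chromosome 16, stood at 3.81, 4.66, 4.06, 4.19 and 4.44 with Tregs depleted, 4.03, 4.28, 4.18, 4.59 and 3.34 with Tregs present, and 5.73, 4.71, 5.91, 5.34 and 6.39 in control. No resolving array reached the lowest control array, which was array 2 at 4.71. The change was -1.38 (95% interval -1.97 to -0.80, adjusted p = 0.00149) with Tregs depleted and -1.53 (95% interval -2.11 to -0.95, adjusted p = 0.000532) with Tregs present, and both calls held in every alternative run.

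E230008O15Rik, a RIKEN clone, had levels of 5.09, 5.95, 5.72, 5.59 and 5.69 with Tregs depleted, 5.19, 5.49, 4.68, 5.72 and 5.38 with Tregs present, and 6.32, 6.09, 6.47, 5.95 and 6.56 in control. Tregs-present arrays were all below control, and depleted array 2 reached the lowest control array at 5.95. It fell in both groups, with a change of -0.67 (adjusted p = 0.0336) with Tregs depleted and of -0.98 (95% interval -1.41 to -0.56, adjusted p = 0.00138) with Tregs present. Under quantile normalization the second shrank to -0.53 (adjusted p = 0.0196) and was still called. The first call was lost in 9 of 29 alternatives, among them the fits without depleted array 1, 4 or 5 and without control array 1, 3 or 5, where the change ran from -0.76 to -0.54 over all arrays left out in turn.

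Gm10099 stood at 4.06, 3.82, 4.49, 4.11 and 4.29 with Tregs depleted, 3.37, 3.69, 3.60, 4.13 and 4.22 with Tregs present, and 4.53, 5.22, 5.22, 4.26 and 5.16 in control. Tregs-present arrays lay just under the control arrays, with 4.22 in the highest and 4.26 in the lowest control array, while depleted arrays overlapped control. Changes were -0.72 (adjusted p = 0.0336) with Tregs depleted and -1.07 (adjusted p = 0.0013) with Tregs present. Quantile normalization ended both calls, at -0.36 and -0.58. The call with Tregs depleted was also lost without depleted array 1, 2 or 4 and without control array 2, 3 or 5, with changes from -0.88 to -0.64 over all arrays left out in turn.

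The remaining 8 of this block were called only with Tregs present. Gm19816 had levels of 5.39, 6.33, 5.74, 5.59 and 5.44 with Tregs depleted, 4.54, 5.22, 4.79, 5.45 and 4.59 with Tregs present, and 6.50, 5.97, 6.51, 5.44 and 6.17 in control. Only array 4 of the Tregs-present group, at 5.45, reached the control range, whose lowest value was 5.44 in control array 4. Its change with Tregs present was -1.20 (95% interval -1.70 to -0.70, adjusted p = 0.00127), and the value with Tregs depleted was -0.42 (adjusted p = 0.301).

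D130012P04Rik stood at 4.72, 5.18, 4.73, 5.14 and 4.71 with Tregs depleted, 4.54, 4.55, 4.05, 4.55 and 4.24 with Tregs present, and 5.30, 4.80, 5.52, 4.79 and 5.86 in control. Tregs-present arrays lay below every array of the other two groups, a pattern shown by no other of the 41. The change with Tregs present was -0.87 (95% interval -1.30 to -0.44, adjusted p = 0.00464), with -0.36 (adjusted p = 0.299) for Tregs depleted. Under quantile normalization the first shrank to -0.27 and was no longer called.

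Gm20064 had levels of 3.73, 4.39, 3.73, 4.66 and 3.79 with Tregs depleted, 3.72, 3.83, 3.74, 4.43 and 3.58 with Tregs present, and 4.98, 4.23, 5.52, 4.23 and 4.65 in control. Overlap with control came from Tregs-present array 4. Its change with Tregs present was -0.86 (adjusted p = 0.0245), and the value with Tregs depleted was -0.66 (adjusted p = 0.122).

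9930017N22Rik stood at 4.44, 5.60, 5.12, 5.43 and 4.65 with Tregs depleted, 4.78, 4.99, 4.83, 5.45 and 4.60 with Tregs present, and 5.84, 5.33, 6.07, 5.99 and 5.53 in control. Its Tregs-present arrays overlapped control only at array 4. The change with Tregs present was -0.82 (adjusted p = 0.0175), and with Tregs depleted a similar value of -0.70 (adjusted p = 0.0553) narrowly missed the threshold.

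Gm19551 was among the 8 highest transcripts, at 5.30, 6.12, 6.25, 5.99 and 5.74 with Tregs depleted, 5.09, 5.87, 5.06, 5.999 and 5.35 with Tregs present, and 6.38, 5.99, 6.41, 5.99 and 6.59 in control. Array 4 of the Tregs-present group reached the control range. Its change with Tregs present was -0.80 (adjusted p = 0.0162), and the value with Tregs depleted was -0.39 (adjusted p = 0.299).

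Gm19537 had levels of 4.25, 4.61, 4.41, 4.80 and 4.21 with Tregs depleted, 3.95, 4.04, 3.73, 4.03 and 4.42 with Tregs present, and 5.22, 4.81, 5.45, 3.94 and 4.70 in control. Control array 4 at 3.94 lay within the Tregs-present range, and the other control arrays lay above it. Its change with Tregs present was -0.79 (adjusted p = 0.0215), and the value with Tregs depleted was -0.37 (adjusted p = 0.343).

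Gm19578 stood at 4.10, 4.33, 4.18, 3.87 and 4.04 with Tregs depleted, 3.07, 4.20, 3.63, 4.18 and 4.002 with Tregs present, and 4.44, 4.78, 4.97, 4.13 and 4.27 in control. Tregs-present and control arrays overlapped between 4.13 and 4.20. The change with Tregs present was -0.70 (adjusted p = 0.0268), and the value with Tregs depleted was -0.41 (adjusted p = 0.278).

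Gm20169 was the weakest call, at 3.56, 4.61, 3.81, 4.25 and 3.87 with Tregs depleted, 4.05, 3.78, 3.60, 3.92 and 3.43 with Tregs present, and 4.40, 4.27, 4.81, 3.77 and 4.85 in control. The groups overlapped through control array 4. Its change with Tregs present was -0.66 (adjusted p = 0.049), and the value with Tregs depleted was -0.40 (adjusted p = 0.299). Of these 8, quantile normalization left only Gm19816 called, at -0.80. The others shrank to -0.35 for Gm20064, -0.31 for Gm19551, -0.27 for D130012P04Rik, -0.24 for 9930017N22Rik and -0.20 each for Gm19537, Gm19578 and Gm20169. Leaving out Tregs-present array 1 or array 3 ended the calls of Gm20064, Gm19551, Gm19537, Gm19578 and Gm20169. Control array 3 decided those of Gm20064, 9930017N22Rik, Gm19537, Gm19578 and Gm20169. Control array 1 decided those of Gm20064, Gm19537 and Gm20169, control array 2 those of Gm19578 and Gm20169, and Tregs-present array 5 those of Gm20064, 9930017N22Rik and Gm20169. The call of 9930017N22Rik was also lost without Tregs-present array 1. That of Gm20169 was lost in 16 of 29 alternatives, including the fits without depleted array 3, 4 or 5, Tregs-present array 2 or 4, or control array 5. With arrays left out in turn, the change ran from -1.003 to -0.66 for Gm20064, -0.95 to -0.74 for 9930017N22Rik, -0.93 to -0.70 for Gm19551, -1.01 to -0.64 for Gm19537, -0.80 to -0.52 for Gm19578 and -0.83 to -0.55 for Gm20169.

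The calls in the 2 comparisons with control overlapped in 10 transcripts, 1 higher in both and 9 lower in both. These 10 are 90.9% of the calls with Tregs depleted and 52.6% of the calls with Tregs present. The 2 comparisons share their control arrays, so this overlap is no independent evidence. By array number, 8 of the 17 transcripts with a place on a chromosome were called with Tregs depleted and 8 with Tregs present. In the late block 3 of 24 and 11 of 24 were called, and no test of the difference between these blocks was made. Of the 6 transcripts with several probe-set numbers, 5 were called in each comparison. Over all tested symbols the share called was 11.0% with Tregs depleted and 16.2% with Tregs present. Symbols outside the 41 were not counted by block or by probe-set number. Groups did not overlap for 8 of the 41 with Tregs depleted (10.4% of all tested symbols) and for 10 of the 41 with Tregs present (11.0%). Among the 22 other symbols above the same level they did not overlap for 6 with Tregs depleted and 5 with Tregs present, which as a share is close to that of the 41. By size, 6 called changes with Tregs depleted and 8 with Tregs present were at least 2-fold, where 4.62% and 6.94% of all tested symbols were, and 2 and 3 of the 22 other symbols above the same level. Gm20066, which passed the level threshold only through control, is counted among the shared lower calls. In both comparisons it is also counted among the groups that did not overlap and the 2-fold changes. Its part in these counts is tied to that choice.

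**Figure D4:**
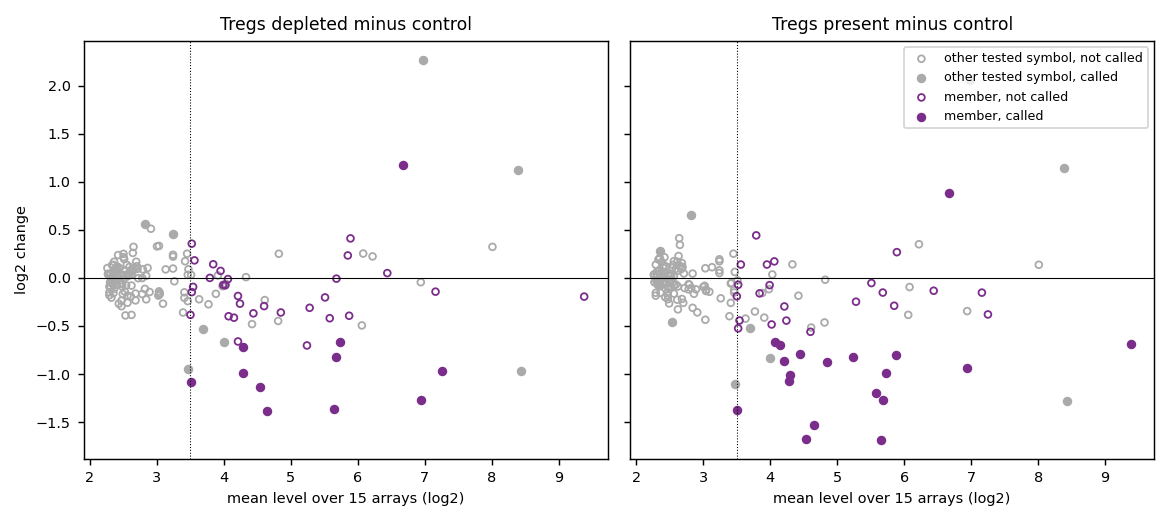
Log2 change against control for each tested symbol, set against its mean log2 level over 15 arrays, with Tregs depleted in one panel and Tregs present in the other. The 41 transcripts are marked, and most of those called lie below 0 at levels on both sides of 5. Under quantile normalization, which can itself remove part of any shared shift, the median change of the 41 moves to 0.03 with Tregs depleted and to -0.20 with Tregs present.

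The other 21 transcripts were called in neither comparison. Differences among these 21 ran from -0.38 to 0.41 with Tregs depleted and from -0.56 to 0.44 with Tregs present. Some of them are among the highest signals of the 41. The long non-coding RNA A230045G11Rik, numbered between Pisd-ps2 and Tfb1m on chromosome 17, had group means of 7.12 ± 0.08 with Tregs depleted, 7.11 ± 0.16 with Tregs present and 7.26 ± 0.15 in control (SD, n = 5 each). Its difference from control was -0.14 (95% interval -0.39 to 0.10, adjusted p = 0.463) with Tregs depleted and -0.15 (95% interval -0.40 to 0.09, adjusted p = 0.45) with Tregs present, and a 2-fold change lies outside both intervals. 4933407I18Rik, in the late block, had 6.52 ± 0.11 with Tregs depleted, 6.34 ± 0.40 with Tregs present and 6.47 ± 0.33 in control.

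Gm19313, also in the late block, had a mean of 6.08 ± 0.44 with Tregs depleted, 5.94 ± 0.19 with Tregs present and 5.67 ± 0.27 in control. Its differences from control were 0.41 (adjusted p = 0.23) with Tregs depleted and 0.27 (adjusted p = 0.431) with Tregs present. Under quantile normalization both were called higher, the depleted group at 0.62 and the Tregs-present group at 0.72. The first was also called without depleted array 5. Gm11974 and A730028G07Rik were singled out after their values were seen, for their wide ranges within groups. Gm11974, which RefSeq lists as Snhg15, ran from 2.87 to 4.80 with Tregs depleted, 3.17 to 5.31 with Tregs present and 3.14 to 4.10 in control. A730028G07Rik ran from 2.84 to 4.30 with Tregs depleted, 2.41 to 3.79 with Tregs present and 3.34 to 4.26 in control.

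Tregs depleted was also set against Tregs present. These resolving groups differ in Tregs, in strain and perhaps in toxin, so Treg loss cannot be singled out. None of the 41 passed, and 0% of all 173 tested symbols did, by limma or by an ordinary linear model. At an unadjusted p under 0.05, 6 of the 41 stood out, 4 higher and 2 lower with Tregs depleted, where 8.09% of all tested symbols did. Differences lay above 0 for 33 of the 41 and below for 8, with a median of 0.26. Over all tested symbols 102 of 173 lay above 0, with a median of 0.02. Of the 22 other symbols above the same level, 14 lay above 0 and 8 below, with a median of 0.07. After quantile normalization 25 of the 41 lay above 0, and the median was 0.05. The half-width of the 95% interval had a median of 0.43 for the 41, so smaller differences could mostly not be told from 0 with 5 arrays a group.

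In the values as deposited, the largest of these differences was that of Gm19816, at 0.78 (95% interval 0.28 to 1.28, adjusted p = 0.252), with depleted arrays between 5.39 and 6.33 and Tregs-present arrays between 4.54 and 5.45. The second in size was A130040M12Rik, given above, in the opposite direction. D130062J21Rik followed at 0.54 (95% interval 0.02 to 1.06, adjusted p = 0.527), with overlapping groups. Under quantile normalization the order changed, with Gm11974 at -0.67, A130040M12Rik at -0.61 and Gm19816 at 0.60.

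Gm7265, whose name RefSeq lists under Nedd4, had levels of 6.52, 6.38, 6.08, 6.13 and 5.41 with Tregs depleted, 6.26, 5.65, 4.89, 5.82 and 5.29 with Tregs present, and 6.23, 5.75, 6.29, 4.96 and 6.12 in control. All 3 groups overlapped. Its difference between the resolving groups was 0.52 (95% interval -0.07 to 1.12, adjusted p = 0.591), and neither comparison with control passed. D130012P04Rik differed by 0.51 (95% interval 0.09 to 0.94, adjusted p = 0.527), and its resolving groups did not overlap, which held for 1 of the 41 and for 1.73% of all tested symbols. All 5 depleted arrays, at 4.71 to 5.18, were above all 5 Tregs-present arrays, at 4.05 to 4.55.

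**Figure D5:**
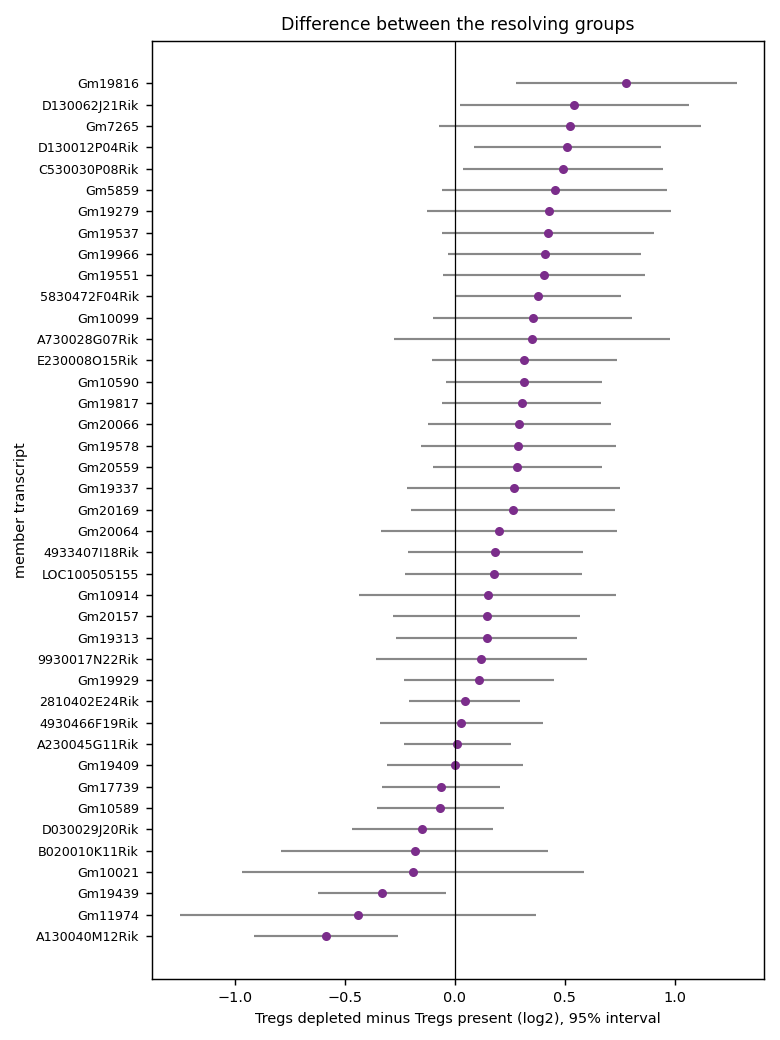
Log2 difference of Tregs depleted minus Tregs present for each of the 41 transcripts, with its 95% interval from the limma fit. Points lie above 0 for 33 transcripts and below for 8, and none passes an adjusted p of 0.05. Quantile normalization, which can itself remove part of any shared shift, lowers the number above 0 to 25.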

How the data were processed

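The 15 arrays are Affymetrix Mouse Gene 2.1 ST arrays hybridised with labelled cDNA from 225 ng of RNA of sorted AT2 cells (CD31+ and CD45+ cells depleted first), and no DNase step preceded the column, per the labels' protocols. Part of each description mentions regulatory T cells, but the source and tissue labels say AT2 cells and were followed. The log2 values deposited by the authors are RMA signals. The notes on processing list RMA, Affymetrix Expression Console and Partek, without versions or roles. The genome build is not given in the sources used here either. Coordinates are printed only from RefSeq promoters of GRCm38.p6. Of 31351 rows in the table, only the first 324 are measurements. The other 31027 lie on a straight line by row number in every column and were left out. There were 0 unused columns of sample values. Of 323 symbols, 173 lay above the array median in at least 5 of 15 arrays and were tested, all 41 members among them, in 1 limma fit (version 3.58.1, R 4.3.3) with a mean per group and a mean-variance trend. Tests were two-sided, with Benjamini-Hochberg adjustment over the 173 and a threshold of 0.05. Alternatives were other scalings, filters, spread models, thresholds, a replicate block and each array left out. The code was tested on simulated data. Members called in any comparison, the 8 highest, the 5 with the largest difference between the resolving groups and 3 on each side of the level threshold are named. The members, lists and motifs were chosen with earlier results of these data known. Microarrays give no depth, and the number of arrays limits the precision.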

Additional observations from a re-analysis of the deposited data

Results flagged for a closer look

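In 5 of 72 sets of 5 arrays checked, the array at one end stood farther from its neighbour than Dixon's test allows, and chance alone gives about 1 in 20. Gm5859 stood at 5.66 in control array 4, against 6.41 to 6.69 in the other control arrays. Gm10590 was also low in control array 4, at 6.10, against 6.69 to 6.91 in the other control arrays. Gm20064 reached 4.43 in Tregs-present array 4, where the other arrays of that group lay between 3.58 and 3.83. A230045G11Rik reached 7.38 in Tregs-present array 2, against 7.00 to 7.10 in the others. 4933407I18Rik reached 6.71 in depleted array 4, against 6.44 to 6.48 in the others. Depleted arrays 1, 2 and 3 and control array 4 all hold 6.4832 for it, so the narrow spread rests partly on repeated values. Repeated values also occur elsewhere, such as 5.9896 for Gm19551 in depleted array 4 and control arrays 2 and 4. Their source was not tested.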

How the results depend on the processing

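The number of the 41 transcripts called with Tregs depleted against control was 11, and it ran from 8 to 12 with each array left out in turn, with 8 called every time. The number with Tregs present against control was 19 and ran from 12 to 20, with 12 called every time, the lowest without Tregs-present array 1. Asking for a 2-fold change lowered these counts to 6 and 8. An ordinary linear model lowered them to 8 with Tregs depleted and 14 with Tregs present. For Tregs depleted against Tregs present the count was 0 in every fit that left out an array, and 1 (A130040M12Rik, lower) when only symbols with a mean over 4 were tested. With the replicate block the counts were 11 with Tregs depleted against control, 16 with Tregs present against control and 0 between the resolving groups. No label links arrays of equal number, and same-numbered arrays did not deviate together (15 pairs, median r 0.00, range -0.25 to 0.33), so the block is no pairing. Quantile normalization of the measured rows kept 10 of the 19 calls with Tregs present. Under that scaling 12 differences changed sign with Tregs depleted against control, 13 with Tregs present against control and 8 between the resolving groups. None of these had been called, and 1 was called after it (D030029J20Rik with Tregs present). A230045G11Rik came to 0.0802 with Tregs depleted and 0.0322 with Tregs present under quantile normalization. 4933407I18Rik came to 0.0243 with Tregs present under quantile normalization, and to between -0.0590 and 0.14 with Tregs depleted when arrays were left out, at -0.003 without control array 2. The cause was not tested. The 2 comparisons with control rest on the same 5 control arrays. One alternative, leaving out depleted array 5 and control array 4 together, was chosen after seeing the data.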
